A study of Mus musculus with 7 samples.

Results

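Translation initiation and elongation factors are the proteins that load ribosomes onto messenger RNA and move them along it. The genes described here are the protein-coding mouse genes whose symbols begin with Eif and a digit or with Eef, without the eIF2 kinases (Eif2ak). The rule uses symbols alone and no measured value, and it took 64 of the 52550 genes in the count files, 51 for initiation and 13 for elongation. Of the 64, 61 passed the filter on low counts and 3 did not. Another 9 family symbols that are not protein-coding (8 pseudogenes and 1 lincRNA) and 4 eIF2 kinase genes lay outside the rule.

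The 7 libraries measured polyadenylated RNA of Paneth cells, which sit in the crypts of the small intestine and secrete antimicrobial granules, sorted by CD24 and side scatter after removal of cells bearing TER119, CD31 or CD45. All mice carried the Lgr5-EGFP-IRES-CreERT2 allele on a C57BL/6J background, and the labels name no Cre target and no induction, so the allele is common to both groups. The 4 DSS libraries came from mice given 3% dextran sulfate sodium (DSS), which injures the gut epithelium, for 7 days and killed 3 days after its removal. The 3 water libraries came from mice on normal water. Water 1 and 2 and DSS 1 were from mice aged 12 weeks, and water 3 and DSS 2 to 4 from mice aged 10 weeks. No day of RNA isolation held libraries of both groups, so day and group cannot be told apart. All water libraries, but only DSS 4 among the DSS libraries, carry a number 6 in their names that is taken here for the sequencing lane. That reading is an inference. Lane in this sense and group can hardly be told apart either. Whether every library stands for a mouse of its own is not stated, and the p-values describe variation among these libraries, which may be technical.

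As background, initiation begins when eIF2, bound to GTP and the initiator tRNA, joins the small ribosomal subunit together with eIF1, eIF1A, eIF3 and eIF5. The mRNA is brought in by eIF4F, in which eIF4E binds the cap, eIF4G is the scaffold and eIF4A is the helicase. During elongation eEF1A delivers aminoacyl-tRNA, its exchange complex reloads it with GTP, and eEF2 moves the ribosome by a codon. Some of these factors, like ribosomal proteins, are encoded by TOP mRNAs, which begin with a C followed by a run of pyrimidines and whose translation is controlled by the kinase complex mTORC1. Paneth cells make large amounts of secreted protein, and so rely on a well-supplied translation machinery.

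Because the start of a TOP mRNA defines it, the RefSeq sequence around the annotated start site (build GRCm38.p6) is shown for the 13 members with an entry whose DSS and water libraries did not overlap. Each window of 30 bases holds 10 bases before the start and 20 from the start on, on the gene's own strand. Capitals mark a C followed by at least 4 pyrimidines (C or T), searched on the sense strand only. The first 7 genes lay higher in all DSS libraries than in all water libraries, and the last 6 lay lower. Eif4e2 has 3 annotated starts, each with its own window.
Eef1a1: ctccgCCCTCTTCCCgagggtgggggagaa
Eef1b2: ctgcagttccgccggaagtagccgaggcct
Eef2: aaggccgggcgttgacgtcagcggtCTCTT
Eif3f: tctaggCTCTCTCTCTTTCTCggcaagatg
Eif3k: aaccggcgctggtgctgaaagcgCCTTTCC
Eif4b: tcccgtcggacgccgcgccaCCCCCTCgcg
Eif4e2 (first start): cgcctcgccagccaaccggaagtagccggg
Eif4e2 (second start): ctcgccagccaaccggaagtagccgggccc
Eif4e2 (last start): ggCCCTTagcgatgggacccggtagagcgg
Eif3a: ctcgggcggcggcgctgccgccgcgaggga
Eif4a2: gaaaccccgtaggagcagggcggccgagga
Eif5: cgacgtgcatgcgagccaatgacaagagaa
Eif5b: ctgggttcccacctggccggcggctctact
Eif2b5: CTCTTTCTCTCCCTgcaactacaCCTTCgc
Eif5a2: gcccgggctgggcgggccggggcggggagc
The windows lie at chr9:78481705-78481734 on the minus strand for Eef1a1, chr1:63176821-63176850 on the plus strand for Eef1b2 and chr10:81176621-81176650 on the plus strand for Eef2. They lie at chr7:108934405-108934434 on the plus strand for Eif3f, chr7:28981869-28981898 on the minus strand for Eif3k and chr15:102073763-102073792 on the plus strand for Eif4b. The windows of Eif4e2 lie at chr1:87213901-87213930, chr1:87213904-87213933 and chr1:87213929-87213958 on the plus strand. For the lower genes they lie at chr19:60790674-60790703 (minus, Eif3a), chr16:23107458-23107487 (plus, Eif4a2), chr12:111538091-111538120 (plus, Eif5), chr1:37998000-37998029 (plus, Eif5b), chr16:20498807-20498836 (plus, Eif2b5) and chr3:28781267-28781296 (plus, Eif5a2).

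A sequence entry was matched for 48 of the 64 members. The pyrimidine run was present in the window of 18 of these 48 (37.5%), against 10698 of 27025 genes with an entry (39.6%) and 44 of 65 ribosomal protein genes (67.7%). Among members lying higher in all DSS libraries it was present in 6 of 7 with an entry (85.7%), the exception being Eef1b2. A gene counted when any of its starts matched, and a run wholly before the start counted too. Eif4e2 was counted through its last start alone, where the run lies wholly before the start and so outside the annotated mRNA. Among members lying lower in all DSS libraries it was present in 1 of 6 (16.7%), which was Eif2b5. The window was chosen after the sequences had been read, and the contrast depends on it. When the run had to begin within 5 bases of the annotated start, it was found in 2 of 7 members lying higher and 1 of 6 lying lower, against 21.2% of all genes and 47.7% of ribosomal protein genes. A match describes the letters in the window and no more.

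The factors were among the more abundant transcripts of these cells. Levels between genes are compared as RPKM (TMM-normalised reads per kilobase of counted exon, scaled to depth). In water the median tested member was at 21.8 RPKM, against 4.00 RPKM for all 17449 genes tested. Of the 61, 57 lay above the median gene and 26 in the upper 10% of genes. Eef1a1, which encodes the tRNA carrier, led with 957 ± 36.6 RPKM in water (SD, n = 3), rank 53 of all genes tested. Eef2, the translocase, was next with 597 ± 45.1 RPKM, rank 64. Eif5a, which carries hypusine and helps ribosomes across difficult peptide bonds, followed with 145 ± 9.98 RPKM and overlapped in its spread with Eef1b2 at 137 ± 9.27 RPKM. Eif4e, the cap-binding protein, was at only 6.96 ± 0.501 RPKM, rank 6163. The lowest tested member was Eif5a2, a paralogue of Eif5a, at 0.167 ± 0.0372 RPKM, rank 16692.

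**Figure D1:**
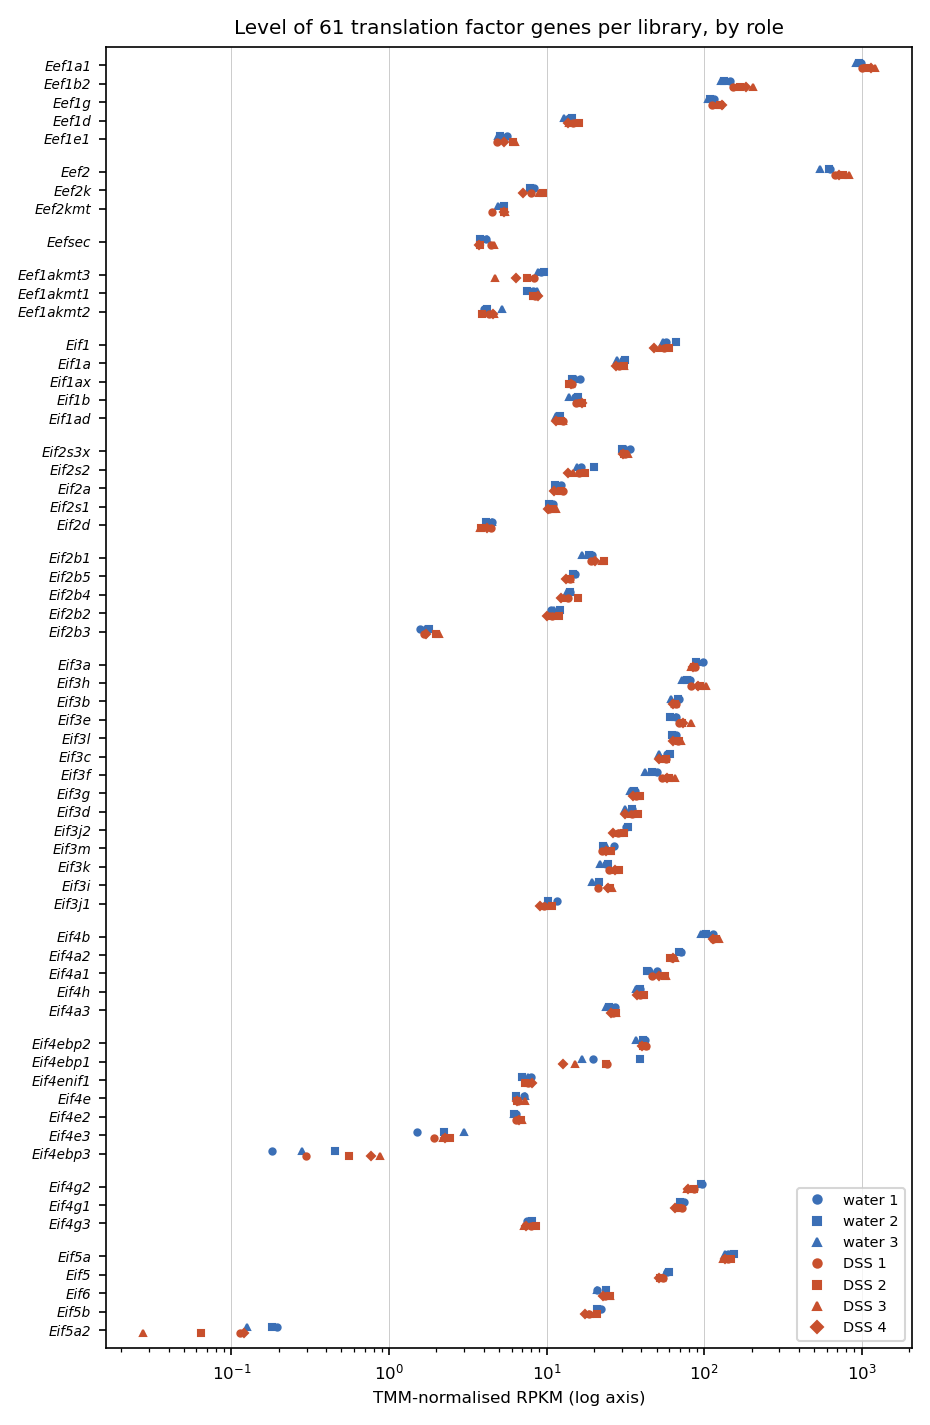
TMM-normalised RPKM (log axis) of the 61 tested factor genes in each of the 7 libraries, grouped by role and sorted by water level within a role; blue marks water, red marks DSS, and shapes mark the replicate. Eef1a1 and Eef2 stand furthest to the right, and for most genes the red and blue points lie close together or overlap.

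The 3 members below the filter were at or near 0. Eef1a2, the form of eEF1A found in muscle and neurons, had reads in DSS 3 only, at 0.0344 CPM (TMM-normalised counts scaled to library size). Eif4e1b, an oocyte paralogue of eIF4E, and Eif2s3y, the Y-linked copy of eIF2 gamma, had none in any library. A count of 0 allows up to 3 reads, or 0.0882 to 0.144 CPM depending on the library; this limit covers counting error only. The X-linked copy Eif2s3x was at 114 to 129 CPM in all 7 libraries. The Y-linked genes Ddx3y, Kdm5d and Uty stayed at or under 0.0687 CPM, and Xist, which is made from the inactive X, was at 1245 to 2008 CPM.

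Comparison of DSS with water addresses how the RNA of sorted Paneth cells differs after gut injury. No member passed the threshold of 0.05 in edgeR's quasi-likelihood test with Benjamini-Hochberg adjustment over all 17449 genes tested. The background was 0% of genes called higher and 0% called lower, and the lowest adjusted p was 0.123 over all genes and 0.142 (Eif3f) over the members. At an unadjusted p under 0.05, 8 members were higher and 6 lower (22.95% of 61), against 15.71% of all genes, 8.36% higher and 7.35% lower. The groups did not overlap for 18 members, with DSS higher for 9 and lower for 9 (14.75% each), against 7.4% and 7.51% of all genes. Of the 61 estimates 32 were above 0 and 29 below, with a median of 0.03 on the log2 scale, against -0.0015 for all genes. The absolute difference had a median of 0.105, smaller than the 0.136 of all genes, with a median standard error of 0.0757.

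DESeq2, used as an alternative, called 3 members higher and 1 lower at an adjusted p under 0.05, with a background of 2.61% of genes higher and 2.23% lower. Its calls were Eif3f (log2 difference 0.36 ± 0.09 SE, adjusted p = 0.00825), Eef2 (0.33 ± 0.09, adjusted p = 0.0141), Eef1b2 (0.38 ± 0.11, adjusted p = 0.0155) and Eif4g2 (-0.22 ± 0.07, adjusted p = 0.0286). Without the low-count filter edgeR called 1 member, Eif3f, at an adjusted p of 0.0406, with a background of 0.684% of genes higher and 0.573% lower. With DSS 1 left out edgeR called 168 genes higher and 135 lower (0.97% and 0.779%), none of them a member.

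**Figure D2:**
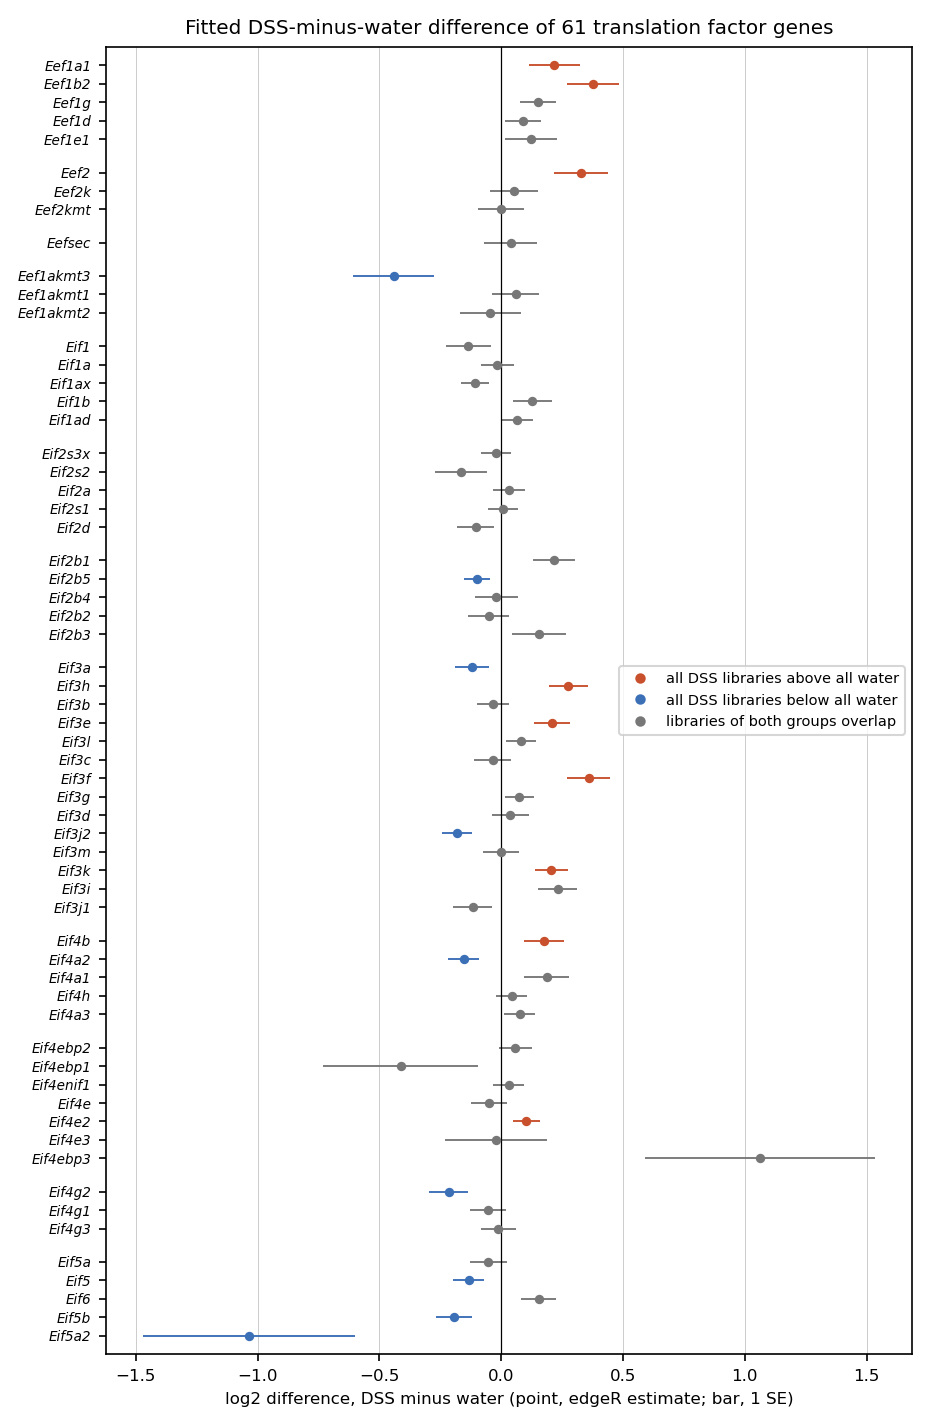
Fitted log2 difference between DSS and water (edgeR; bars, 1 SE) of the 61 tested factor genes, grouped by role; red and blue mark the 9 genes each whose DSS libraries were all higher or all lower than the water libraries. No gene passed the adjusted threshold; most points lie within 0.4 of 0, and the wide bars belong to the low genes Eif5a2 and Eif4ebp3 and to Eif4ebp1.

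Among elongation factors, the group of eEF1A and its exchange complex held 5 tested genes, counting Eef1e1, which is no exchange subunit. All 5 had estimates above 0, with a median of 0.15, and 2 of the 5 lay higher in DSS without overlap (7.4% of all genes). Eef1b2, the exchange factor eEF1B alpha, was at 372, 340.2 and 326 CPM in water and at 384, 431, 514 and 467 CPM in DSS, in the order of the replicates as throughout. The groups did not overlap, with DSS 3 highest and DSS 1 only just above water 1. The log2 difference was 0.38 ± 0.11 (edgeR quasi-likelihood test, adjusted p = 0.175). In bulk libraries a different share of cells of one type and a different amount of RNA per cell cannot be told apart, here and in every value below.

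Eef1a1 was at 2477, 2384 and 2294 CPM in water and at 2508, 2700.3, 3043 and 2845 CPM in DSS. Again the groups did not overlap and DSS 1 lay next to water 1, with a log2 difference of 0.22 ± 0.11 (edgeR, adjusted p = 0.355). The ratio of Eef1b2 to Eef1a1 in RPKM does not depend on how libraries are scaled. It was 0.148, 0.141 and 0.140 in water and 0.151, 0.157, 0.166 and 0.161 in DSS, so that Eef1b2 lay further above its water level than Eef1a1 did.

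The other genes grouped with eEF1A differed less. Eef1g (eEF1B gamma) was at 302, 282 and 277 CPM in water and at 291, 329, 318 and 335 CPM in DSS, with overlap because of DSS 1 and a log2 difference of 0.15 ± 0.07. Eef1d (eEF1B delta) was at 76.7 to 85.1 CPM in water and at 81.3 to 95.4 CPM in DSS, a log2 difference of 0.09 ± 0.07 with overlapping groups. Eef1e1, a small protein of the multi-synthetase complex that shares a fold with the exchange subunits, differed by 0.12 ± 0.11.

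Eef2 was at 2091, 2048 and 1813 CPM in water and at 2263, 2536, 2772 and 2397 CPM in DSS. All DSS libraries were higher, and the log2 difference was 0.33 ± 0.11 (edgeR, adjusted p = 0.22). Its regulators did not share this pattern. Eef2k, the kinase that inhibits eEF2, was at 57.9 to 61.4 CPM in water and at 58.7, 70.6, 66.2 and 52.3 CPM in DSS, a log2 difference of 0.05 ± 0.10. Eef2kmt, a methyltransferase of eEF2, differed by 0.00 ± 0.09. An overlap of 23.2% of its exon length with other genes limits that value.

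Eefsec, the selenocysteine-specific elongation factor, was at 10.5 to 11.7 CPM in water and at 10.4 to 13.0 CPM in DSS, a log2 difference of 0.04 ± 0.11. The lysine methyltransferases of eEF1A were divided. Eef1akmt3 was at 25.03, 26.0 and 23.9 CPM in water and at 22.8, 20.6, 12.9 and 17.4 CPM in DSS. It lay lower in all DSS libraries, with DSS 3 lowest and a log2 difference of -0.44 ± 0.17 (edgeR, adjusted p = 0.256). Eef1akmt1 and Eef1akmt2 differed by 0.06 ± 0.10 and -0.04 ± 0.13, with overlapping groups.

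The factors that choose the start codon and bring the initiator tRNA lay close to their water levels. Of the 5 genes of the eIF1 and eIF1A group none was under an unadjusted p of 0.05, and the median was -0.02. Eif1, which guards start codon choice, was at 121, 139 and 114 CPM in water and at 117, 126, 109.6 and 101 CPM in DSS, a log2 difference of -0.14 ± 0.09 with overlap. Its paralogue Eif1b differed by 0.13 ± 0.08. The ratio of Eif1b to Eif1 in RPKM was 0.263, 0.239 and 0.254 in water and 0.274, 0.282, 0.310 and 0.349 in DSS, without overlap. For Eif1b, 12.7% of the exon length overlaps another gene, which limits this ratio. Eif1ax, which like Eif1a encodes eIF1A, differed by -0.11 ± 0.06, and Eif1ad by 0.07 ± 0.06.

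The 3 subunits of eIF2 showed no separation of the groups. Eif2s1, the alpha subunit that stress kinases phosphorylate, was at 51.2 to 54.2 CPM in water and at 50.7 to 57.0 CPM in DSS, a log2 difference of 0.01 ± 0.06. Eif2s3x (gamma) differed by -0.02 ± 0.06. Eif2s2 (beta) was at 112, 134 and 106 CPM in water and at 109, 118, 99.5 and 92.6 CPM in DSS, a log2 difference of -0.16 ± 0.11.

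In eIF2B, the exchange factor that recharges eIF2, the subunits went both ways around a median of -0.02. Eif2b1 (alpha, the regulatory subunit) was at 50.2, 48.0 and 43.6 CPM in water and at 49.4, 60.1, 58.0 and 52.1 CPM in DSS, a log2 difference of 0.22 ± 0.09 (edgeR, adjusted p = 0.273) with DSS 1 inside the water range. Eif2b5 (epsilon, the catalytic subunit) was at 48.4, 47.0 and 47.7 CPM in water and at 45.2, 45.0, 45.0 and 42.9 CPM in DSS. All DSS libraries were lower, with a log2 difference of -0.10 ± 0.05 (edgeR, adjusted p = 0.4), or 0.14 with library totals in place of TMM factors. Eif2b2, Eif2b3 and Eif2b4 differed by -0.05 ± 0.08, 0.15 ± 0.11 and -0.02 ± 0.09.

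Genes of eIF3, the scaffold that holds the small subunit ready for mRNA, lay on both sides of 0. Of its 14 genes, 8 had estimates above 0 and 6 below. The groups did not overlap for Eif3f, Eif3h, Eif3e and Eif3k, which lay higher in DSS, or for Eif3a and Eif3j2, which lay lower, against 7.4% and 7.51% of all genes. At an unadjusted p under 0.05, 5 were higher and 1 lower, against 8.36% and 7.35% of all genes. In the complex Eif3f and Eif3h carry MPN domains and join the PCI-domain subunits Eif3a, Eif3c, Eif3e, Eif3k, Eif3l and Eif3m in one lobe, with Eif3b, Eif3d, Eif3g, Eif3i and Eif3j bound around it.

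Eif3f was at 146, 134 and 121 CPM in water and at 156, 173, 189 and 169 CPM in DSS. Its means were 134 ± 12.2 CPM (SD, n = 3) and 172 ± 13.4 CPM (SD, n = 4), a log2 difference of 0.36 ± 0.09. Eif3h was at 101, 97.0 and 90.5 CPM in water and at 104, 117, 129 and 115 CPM in DSS, a log2 difference of 0.27 ± 0.08 (edgeR, adjusted p = 0.183). For both genes DSS 3 was highest and DSS 1 lowest among the DSS libraries.

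Eif3e was at 103, 93.9 and 102 CPM in water and at 106, 112, 128 and 114 CPM in DSS, a log2 difference of 0.21 ± 0.08 (edgeR, adjusted p = 0.242). Eif3k was at 64.7, 66.6 and 59.3 CPM in water and at 67.7, 77.6, 73.7 and 73.9 CPM in DSS, also 0.21 ± 0.07 (edgeR, adjusted p = 0.214). In both genes DSS 1 lay within a few CPM of the highest water library. Eif3i, a WD40-repeat subunit outside that lobe, was at 78.4, 79.3 and 71.6 CPM in water and at 78.4, 93.0, 97.0 and 90.4 CPM in DSS, a log2 difference of 0.23 ± 0.08 (edgeR, adjusted p = 0.234), with overlap through DSS 1.

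Eif3a, the largest subunit, was at 506, 462 and 470.5 CPM in water and at 451, 447, 428 and 439.5 CPM in DSS. All DSS libraries were lower, with a log2 difference of -0.12 ± 0.07 (edgeR, adjusted p = 0.446). Eif3j2, one of 2 genes for the loosely bound subunit j, was at 76.5, 78.2 and 76.8 CPM in water and at 67.2, 73.5, 68.4 and 63.1 CPM in DSS, a log2 difference of -0.18 ± 0.06 (edgeR, adjusted p = 0.227). With library totals the estimates of Eif3a and Eif3j2 became 0.11 and 0.05, so their direction depends on the scaling. The copies Eif3j1 and Eif3j2 are near-identical, and the counting could split their reads; 20.2% of the exon length of Eif3j1 also overlaps other genes.

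Ratios between subunits are free of that scaling. The RPKM of Eif3f over Eif3a was 0.516, 0.521 and 0.462 in water and 0.620, 0.691, 0.789 and 0.690 in DSS. For Eif3h over Eif3a the values were 0.826, 0.867 and 0.794 in water and 0.955, 1.08, 1.24 and 1.08 in DSS, so that the order of the 2 transcripts turned in 3 of the 4 DSS libraries. Eif3e over Eif3a was at 0.681, 0.683 and 0.731 in water and at 0.793, 0.843, 1.004 and 0.870 in DSS. These ratios were chosen after the values had been seen and carry no test. The highest subunit gene exceeded the lowest by 8.34 to 8.97 times in water and by 8.65 to 10.4 times in DSS.

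**Figure D3:**
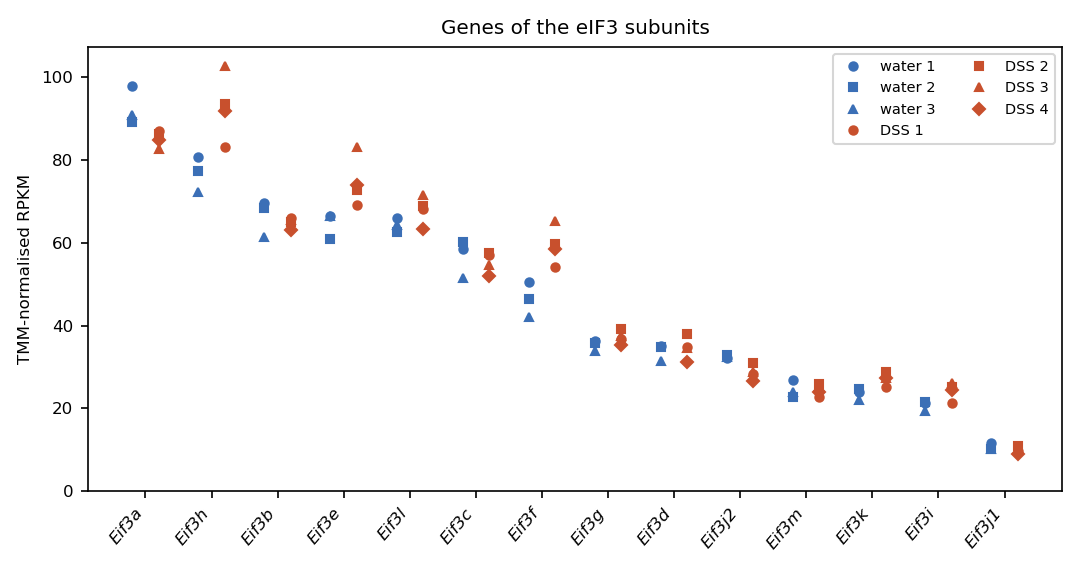
TMM-normalised RPKM of the 14 genes of eIF3 subunits in each of the 7 libraries, sorted by water level; blue marks water and red marks DSS. Eif3h, Eif3e, Eif3f and Eif3k have all 4 DSS points above the 3 water points, and Eif3a and Eif3j2 have them below; the axis starts at 0.

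Of the helicase and its helpers, Eif4b, which stimulates eIF4A and is a substrate of S6 kinase, was at 437, 398 and 371 CPM in water and at 439, 457, 479 and 441 CPM in DSS. The groups were separated only by the small step from water 1 to DSS 1, with a log2 difference of 0.18 ± 0.08 (edgeR, adjusted p = 0.332). Eif4a1 and Eif4a2 encode the 2 exchangeable helicases and lay on opposite sides. Eif4a1 was at 218, 189 and 199.8 CPM in water and at 202, 245, 249 and 224 CPM in DSS, a log2 difference of 0.19 ± 0.09 with overlap. Eif4a2 was at 381, 367 and 375 CPM in water and at 336, 325, 348 and 337 CPM in DSS, a log2 difference of -0.15 ± 0.06 (edgeR, adjusted p = 0.288), or 0.08 with library totals.

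The scaling-free ratio of Eif4a2 to Eif4a1 in RPKM was 1.42, 1.58 and 1.53 in water and 1.35, 1.08, 1.14 and 1.22 in DSS, without overlap. Both values have limits of counting. A processed pseudogene, Eif4a-ps4, was itself at 126 to 150.2 CPM, so reads of Eif4a1 may be divided with it, and 13.3% of the exon length of Eif4a2 overlaps other genes, among them small nucleolar RNAs. Eif4a3, the helicase of the exon junction complex, and Eif4h differed by 0.08 ± 0.06 and 0.04 ± 0.06.

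The cap-binding protein itself was level. Eif4e was at 43.2, 38.3 and 43.8 CPM in water and at 39.7, 38.9, 44.0 and 39.0 CPM in DSS, a log2 difference of -0.05 ± 0.07. Eif4e2, a cap-binding homologue linked to repression, was at 47.7, 46.6 and 46.8 CPM in water and at 47.9, 51.8, 52.2 and 50.1 CPM in DSS, a difference of 0.10 ± 0.06 (edgeR, adjusted p = 0.408) without overlap. Eif4enif1, the transporter that carries eIF4E into the nucleus, differed by 0.03 ± 0.06.

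The 4E-BPs bind eIF4E and block the cap complex until mTORC1 phosphorylates them. Eif4ebp2 was the highest of them at 39.9 ± 2.59 RPKM in water and differed by 0.06 ± 0.07. Eif4ebp1, which is also a target gene of the stress factor ATF4, was at 43.2, 86.2 and 37.0 CPM in water and at 53.0, 52.6, 33.3 and 27.9 CPM in DSS. Water 2 alone set its log2 difference of -0.41 ± 0.32, which was 0.05 without that library. Eif4ebp3 was at 0.134 to 0.336 CPM in water and at 0.220 to 0.653 CPM in DSS, from 3 to 7 reads and from 5 to 19 reads, with overlap. Its log2 difference of 1.06 ± 0.47 (edgeR, adjusted p = 0.322) was the highest estimate among the 61 members, and 67.3% of its exon length overlaps Ankhd1.

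The 3 eIF4G scaffolds had estimates below 0. Eif4g2 (DAP5), which lacks the eIF4E-binding site and serves cap-independent initiation, was at 982, 970.4 and 959.7 CPM in water and at 880.2, 872, 789 and 804 CPM in DSS. Water libraries lay within a narrow band and all DSS libraries below it, a log2 difference of -0.21 ± 0.08 (edgeR, adjusted p = 0.253). With library totals the estimate was 0.02. Eif4g1, the main scaffold, was at 541, 508 and 498 CPM in water and at 524, 490.3, 499.9 and 472 CPM in DSS, a log2 difference of -0.05 ± 0.07, and Eif4g3 differed by -0.01 ± 0.07. The RPKM of Eif4g2 over Eif4g1 was 1.29, 1.36 and 1.37 in water and 1.19, 1.26, 1.12 and 1.21 in DSS, without overlap. Of the other paralogue ratios, those of Eif4e2 and Eif4e3 to Eif4e and of Eif4g3 to Eif4g1 overlapped between groups. So did those of Eif3j2 to Eif3j1, Eif4ebp2 to Eif4ebp1 and Eif1a to Eif1ax. The ratio of Eif5a2 to Eif5a did not, but it rests on few reads of Eif5a2. No share of non-overlapping ratios over other gene pairs was computed.

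Factors acting at subunit joining lay mostly lower. Eif5, which makes eIF2 hydrolyse its GTP, was at 398, 409 and 393 CPM in water and at 376, 360.2, 368 and 355 CPM in DSS, a log2 difference of -0.13 ± 0.06 (edgeR, adjusted p = 0.354). Eif5b, the GTPase that joins the large subunit, was at 218, 205 and 209 CPM in water and at 182, 203, 181 and 171 CPM in DSS, a log2 difference of -0.19 ± 0.07 (edgeR, adjusted p = 0.258). In both, all DSS libraries lay below all water libraries, though DSS 2 came close to water 2 for Eif5b, 16.9% of whose exon length overlaps Rev1. With library totals their estimates were 0.10 and 0.04. Eif6, which keeps the large subunit from joining too early, had its estimate above 0, at 0.15 ± 0.07.

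Eif5a was at 338, 369.8 and 323 CPM in water and at 335, 351, 315 and 323 CPM in DSS, a log2 difference of -0.05 ± 0.08. Its paralogue Eif5a2 was at 0.982, 0.913 and 0.629 CPM in water and at 0.573, 0.324, 0.137 and 0.607 CPM in DSS. All DSS values were below all water values, from 15 to 22 reads in water and 4 to 20 in DSS, with a log2 difference of -1.04 ± 0.44 (edgeR, adjusted p = 0.299).

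**Figure D4:**
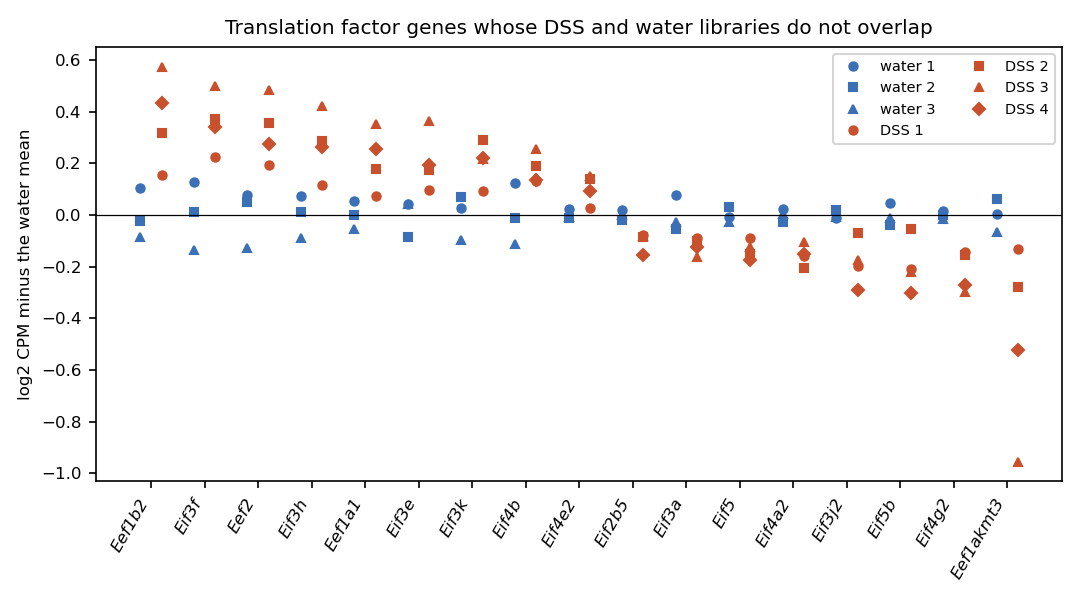
Log2 CPM relative to the water mean for 17 of the 18 factor genes whose DSS and water libraries did not overlap, each point a library (blue, water; red, DSS); Eif5a2 is left out for its low counts. DSS 1 is the DSS library nearest to water for most genes on the left, and Eef1akmt3 spreads most among the DSS libraries.

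Of the 9 members that lay higher in DSS without overlap, 6 are encoded by known TOP mRNAs. That class holds 8 members, namely Eef1a1, Eef1b2, Eef1d, Eef1g, Eef2, Eif3e, Eif3f and Eif3h, taken from published work on TOP mRNAs. Estimates were above 0 for 8 of the 8, with a median of 0.25, and 6 of them did not overlap between groups. Of the other 53 tested members 24 were above 0 and 29 below, with a median of -0.01, 3 lay higher without overlap (Eif3k, Eif4b and Eif4e2) and 9 lower. The background for all genes was 7.4% higher and 7.51% lower without overlap. The class shares its direction with the cytosolic ribosomal protein genes, also TOP mRNAs, of which 81 of 82 tested had estimates above 0, with a median of 0.30. Among these, Rpl23a, Rpl29 and Rpl36 had the smallest p-values, with log2 differences of 0.53 ± 0.08, 0.40 ± 0.07 and 0.41 ± 0.08, and none passed over all genes in edgeR. Genes outside the members and the ribosomal protein genes were not sorted into TOP and other mRNAs. These counts therefore do not describe TOP mRNAs as a whole. Among the unsorted genes, Pabpc1 (-0.07 ± 0.09) and Tpt1 (0.21 ± 0.10) lay on opposite sides of 0, both with overlap.

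Mean log2 level of the 8 TOP factor genes, relative to the water mean, was 0.07, 0.00 and -0.07 in water and 0.12, 0.26, 0.36 and 0.25 in DSS. For ribosomal protein genes it was 0.05, 0.01 and -0.07 in water and 0.12, 0.31, 0.42 and 0.34 in DSS. DSS 1 was nearest to water and DSS 3 furthest in both groups of genes. The mean over the 49 tested genes grouped under initiation lay between -0.05 and 0.06 in all 7 libraries. That group includes the TOP genes Eif3e, Eif3f and Eif3h, and also regulators such as the 4E-BPs. The summed CPM of the 8 TOP factors over that of all other members was 0.812, 0.797 and 0.777 in water and 0.890, 0.958, 1.09 and 1.03 in DSS, without overlap. This ratio, chosen after the values had been seen, does not depend on library scaling and is weighted towards Eef1a1 and Eef2.

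The same libraries differed in their content of Paneth granule transcripts, which made up 32.1%, 34.3% and 32.9% of all counts in water and 29.8%, 25.2%, 21.0% and 21.0% in DSS. Members together took 1.16%, 1.11% and 1.07% of all counts in water and 1.23%, 1.39%, 1.57% and 1.44% in DSS. TMM factors were 0.899 to 0.922 in water and 0.980 to 1.14 in DSS. The part of the granule share in the members' differences was not tested. With TMM factors taken from genes other than granule genes, all 48 named members kept the sign of their estimate. That setting hardly changed the scaling, with a median of all genes of -0.00202 against -0.0015. With library totals, 26 of the 61 tested members changed sign.

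**Figure D5:**
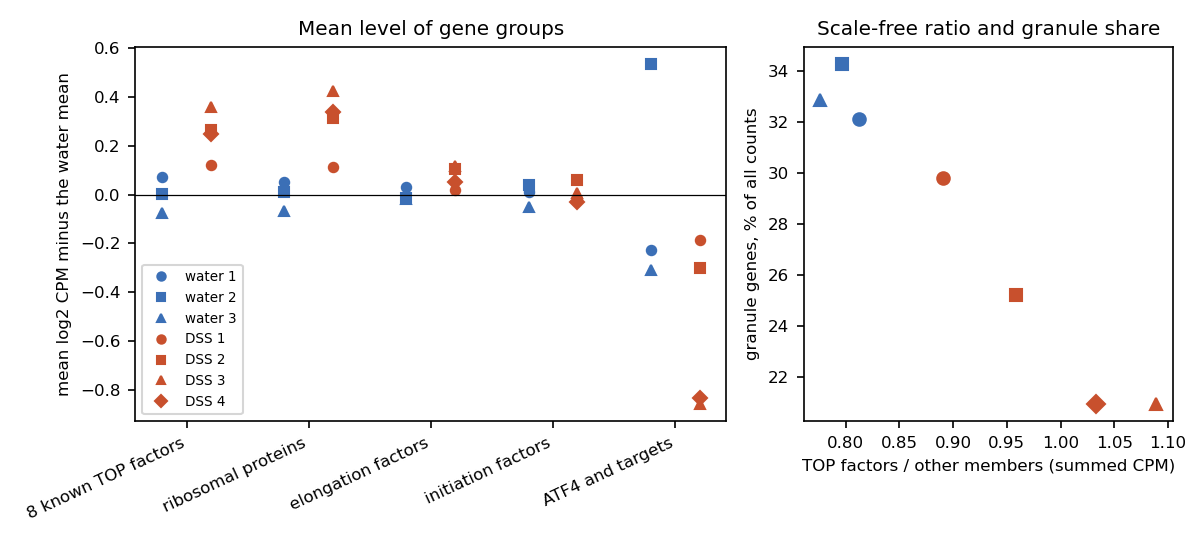
Left, mean log2 CPM of gene groups minus the water mean in each library; right, the share of granule genes in all counts (%) against the summed CPM of the 8 TOP factors over that of the other members, one point a library. The TOP factors and ribosomal protein genes lie above 0 in all 4 DSS libraries. The genes grouped under initiation, which include the TOP genes Eif3e, Eif3f and Eif3h, stay near 0. The libraries with the highest ratio have the lowest granule share.

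Markers of the sorted and of other cell types bear on all these values. Summed Paneth markers were at 205272 to 211881 CPM in water and at 97374 to 170330 CPM in DSS, a sum weighted towards the most abundant of them. Of the 8, 3 (Lyz1, Itln1 and Defa24) lay below all water libraries, against 7.51% of all genes. Estimates were below 0 for 6 of the 8 and above 0 for 2, the higher being Ang4 at 0.13 ± 0.32. Stem markers summed to 4178 to 5017 CPM in water and 4079 to 4996 CPM in DSS. Of the 6, 2 (Ascl2 and Axin2) lay above all water libraries, against 7.4% of all genes, and Lgr5 had a log2 difference of -0.70 ± 0.26, with overlap. Tuft markers summed to 387 to 409 CPM in water and to 387, 719.8, 708 and 370.4 CPM in DSS 1 to 4, goblet markers to 5084 to 6348 and 4746 to 8985 CPM, and cycling markers to 591 to 759 and 474 to 633 CPM. All 5 tuft markers had estimates above 0. Of the 6 goblet markers, Clca1 was at 74.4 to 114 CPM in water and at 193, 755, 210.3 and 585 CPM in DSS, a log2 difference of 2.16 ± 0.49 (edgeR, adjusted p = 0.138), and the other 5 overlapped between groups. Enteroendocrine markers varied most within water, from 57.1 to 2208 CPM, and were at 386 to 1031 CPM in DSS, and enterocyte markers were at 164 to 254 and 138 to 259 CPM. Cd3e, Col1a1, Col3a1 and Kdr were at or under 0.0884 CPM in every library, and endothelial and stromal markers summed to at most 16.9 CPM. Immune markers summed to 10038 to 10324 CPM in water and to 3929 to 7120 CPM in DSS, nearly all from Lyz2, which Paneth cells also express. The part of these shifts in the members' values was not tested.

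Upstream of the factors, the 4 kinases that phosphorylate eIF2 alpha had 2 estimates above 0 and 2 below. Eif2ak3 (PERK), the kinase of the endoplasmic reticulum, was at 66.1, 68.8 and 63.1 CPM in water and at 62.4, 52.0, 40.2 and 47.8 CPM in DSS, a log2 difference of -0.38 ± 0.13 (edgeR, adjusted p = 0.215), with all DSS libraries lower. Eif2ak4 (GCN2) differed by -0.11 ± 0.06 and Eif2ak2 (PKR) by 0.05 ± 0.10. Translation of Atf4 depends on eIF2 phosphorylation, and of 24 genes in the list of Atf4 and its targets 22 had estimates below 0, with a median of -0.37. At an unadjusted p under 0.05, 7 were lower and 0 higher, against 7.35% and 8.36% of all genes, and none passed over all genes in edgeR. Atf4 was at 271, 305 and 250.2 CPM in water and at 231, 231, 187 and 206 CPM in DSS, a log2 difference of -0.37 ± 0.10 (edgeR, adjusted p = 0.167). Chac1, which degrades glutathione, was at 29.9, 100.2 and 20.8 CPM in water and at 19.04, 7.95, 2.03 and 3.86 CPM in DSS, -2.65 ± 0.73 (edgeR, adjusted p = 0.169). Water 2 was the highest library for Atf4 and Chac1, as for Eif4ebp1, and the mean over the list was -0.23, 0.54 and -0.31 in water 1 to 3. In DSS 1 to 4 it was -0.18, -0.30, -0.86 and -0.83, so that DSS 1 and 2 lay within the water range. Without water 2, an alternative chosen after seeing the data, 17 of the 24 estimates were below 0, with a median of -0.20, and 3 were lower and 1 higher at an unadjusted p under 0.05. Library totals moved the median of the list to -0.13, against 0.23 for all genes, with 16 of the 24 estimates below 0 and 8 above.

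Of 20 genes of mTORC1 and S6 kinase signalling, which controls 4E-BPs and TOP mRNAs, 1 was higher and 1 lower at an unadjusted p under 0.05 (8.36% and 7.35% of all genes), with a median of -0.03. With library totals the median of the list was 0.21, against 0.23 for all genes. Then 18 of the 20 estimates were above 0, so the sign depends on the scaling. Rheb, the GTPase that activates mTORC1, was at 70.1, 71.6 and 65.6 CPM in water and at 57.3, 61.3, 56.0 and 52.7 CPM in DSS, a log2 difference of -0.28 ± 0.07 (edgeR, adjusted p = 0.139). Rragd, a Rag GTPase that brings mTORC1 to lysosomes, differed by 0.36 ± 0.11 (edgeR, adjusted p = 0.2) and Mtor itself by 0.05 ± 0.09. RNA levels do not measure the activity of the pathway.

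The remaining lists cover termination, tRNA charging and the hypusine supply. Of 21 genes for termination, recycling and poly(A) binding, 5 were lower and 0 higher at an unadjusted p under 0.05 (7.35% and 8.36% of all genes), with a median of -0.07. Paip2, an inhibitor of the poly(A)-binding protein, was at 85.1, 93.7 and 86.1 CPM in water and at 76.0, 76.4, 72.0 and 78.0 CPM in DSS, a log2 difference of -0.22 ± 0.06 (edgeR, adjusted p = 0.164). Its relative Paip2b and the ribosome rescue factor Hbs1l differed by -0.36 ± 0.12 and -0.22 ± 0.08. Among 22 cytosolic aminoacyl-tRNA synthetases, which charge the tRNAs that eEF1A carries, 17 estimates were below 0, the median was -0.13, and 2 were lower at an unadjusted p under 0.05 (7.35% of all genes). Their mean log2 level was 0.00, 0.15 and -0.15 in water and -0.02, 0.01, -0.17 and -0.26 in DSS, with DSS 1 and 2 inside the water range, and without water 2 the median was -0.04. Tars, for threonine, differed by -0.26 ± 0.11, Dars, for aspartate, by -0.15 ± 0.06 and Farsb, for phenylalanine, by -0.12 ± 0.06. In the 8 genes of hypusine and polyamine synthesis, which supply eIF5A with its modified residue, the median was -0.06. Azin1, which raises polyamine synthesis by binding antizyme, differed by -0.28 ± 0.08 (edgeR, adjusted p = 0.187) and Sms, spermine synthase, by 0.20 ± 0.09. With library totals, under which the median of all genes was 0.23, the medians of the termination, synthetase and hypusine lists became 0.16, 0.10 and 0.18, so their sign depends on the scaling. No gene of these lists passed over all genes in edgeR.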

How the data were processed

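Polyadenylated RNA of sorted Paneth cells was measured in 3 water and 4 DSS libraries, with replicates numbered in accession order. The deposited files give unnormalised read counts for each gene. Per the submitters' processing notes, STAR 2.5.3a, featureCounts 1.5.2 and DESeq2 were used with mm10. Per the file headers, featureCounts 1.5.3 counted exons by gene over GENCODE release 15 without strand, from primary alignments that overlapped by a fraction of at least 0.8, so reads of overlapping genes cannot be told apart; 23 members share exon sequence with another gene. GENCODE release 21 gave symbols for 52403 genes and none for 147. Libraries held between 23175708 and 32451653 counts, and no pair of libraries agreed within sampling noise.

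The main test was edgeR 4.0.16 (R 4.3.3; filterByExpr, TMM, quasi-likelihood, no covariate, Benjamini-Hochberg over 17449 genes, threshold 0.05), tested on simulated data. Alternatives were DESeq2 1.42.0, limma 3.58.1 (voom with quality weights), 3 other scalings, 2 other filters and age as a covariate. Further ones were 10-week mice only, libraries whose names carry the number taken for lane 6 (water 1 to 3 and DSS 4) and leaving out each library. The text always names 36 members, any member called, up to 4 members per role with the smallest p and up to 3 genes per other list; the remaining members were named after their values were seen. One marker gene of the lists is not reported here. The members and lists were chosen with earlier results of these data known.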

Additional observations from a re-analysis of the deposited data

Results flagged for a closer look

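Within the 4 DSS libraries, single libraries stood apart from the other 3 in 3 of 64 series tested. For this the gap to the nearest library was set against the whole range (Dixon's test), and chance gives about 5% of series. The series were the levels of the 48 members that the rule for named genes took and the mean levels of gene groups. All 3 that stood apart were single genes. Eef2kmt was lowest in DSS 1, with a gap of 0.890 of the range (12.0 CPM against 14.2, 14.5 and 14.2 CPM). Eif2b5 was lowest in DSS 4, with a gap of 0.907 (42.9 CPM against 45.2, 45.0 and 45.0 CPM). Eif4e was highest in DSS 3, with a gap of 0.846 (44.0 CPM against 39.7, 38.9 and 39.0 CPM).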

How the results depend on the processing

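No paired analysis was possible because replicate numbers are in accession order and pair nothing. Genes called higher and lower, 0 each in edgeR with TMM factors, were 2107 and 28 with library totals, 240 and 201 without the low-count filter, 347 and 297 in DESeq2, and 3 and 6 in lane 6 libraries. They were 0 to 168 and 0 to 135 when single libraries were left out, with 168 and 135 without DSS 1 and 9 higher without DSS 4. With library totals 18 of the 61 tested members were called higher, against 2107 of 17449 genes. Members called higher were 1 without the filter (0.684% of all genes) and 3 in DESeq2 (2.61% of all genes). DESeq2 also called 1 lower (2.23% of all genes). Library totals moved the median of all genes from -0.0015 to 0.23. DESeq2 size factors in edgeR, TMM without granule genes and a filter of 1 CPM in 4 libraries changed no sign among the 48 members that the rule for named genes took. The 10-week mice include 1 water library and lane 6 includes 1 DSS library, each assumed to vary like the others. In the other settings the cause of a change was not tested. Depth limits Eif5a2, Eif4ebp3 and the 3 members that were not tested.

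Medians relative to all genes moved in 10-week mice to 0.268 for eEF1A and its exchange complex, -0.266 for eEF1A methyltransferases, 0.0970 for eIF1 and eIF1A, 0.174 for eIF4A, eIF4B and eIF4H, 0.149 for elongation, 0.0364 for initiation, 0.0747 for all factors and 0.367 for the TOP factors. In lane 6 libraries they moved to -0.103 for eIF1 and eIF1A, -0.0687 for eIF2, -0.153 for eIF2B, -0.0253 for eIF3, -0.124 for eIF4G, -0.0687 for initiation and -0.0301 for all factors. With single libraries left out they ran from -0.121 to 0.0815 for the methyltransferases, from -0.102 to 0.0288 for eIF2B and from 0.0708 to 0.127 for elongation. In these medians the group of eIF2 holds Eif2a and Eif2d besides the eIF2 subunits, and the group of eIF1 and eIF1A includes Eif1ad.

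Over all 61 tested members the sign changed for 26 with library totals, 13 in lane 6 libraries, 10 in 10-week mice and 4 with age as a covariate. For the members taken by the rule, the fitted log2 differences that changed sign were as follows. In 10-week mice they were Eef1akmt1 -0.0329, Eef2kmt 0.126, Eefsec -0.0487, Eif2b4 0.0242, Eif4ebp1 0.0369 and Eif5a 0.0304. With library totals they were Eef1akmt2 0.194, Eef2kmt 0.240, Eif1 0.0962, Eif1ax 0.126, Eif2b2 0.182, Eif2b4 0.211, Eif2b5 0.135, Eif2d 0.127, Eif2s2 0.0679, Eif2s3x 0.214, Eif3a 0.114, Eif3j2 0.0530, Eif4a2 0.0818, Eif4e 0.188, Eif4g1 0.180, Eif4g2 0.0168, Eif4g3 0.220, Eif5 0.101, Eif5a 0.180 and Eif5b 0.0394. In lane 6 libraries they were Eef1akmt2 0.0184, Eef1d -0.00805, Eef2k -0.198, Eef2kmt 0.0423, Eefsec -0.124, Eif1ad -0.0384, Eif2a -0.0941 and Eif2s1 -0.0732. Eef2kmt was at 0.00801 without the low-count filter, 0.000556 in DESeq2 and 0.00651 in limma-voom, and Eif2s1 was at -0.0110 with age as a covariate. With single libraries left out, 18 members had ranges that crossed 0. Of these 7 lie outside the rule (Eif1a, Eif3b, Eif3c, Eif3d, Eif3m, Eif4e3 and Eif4enif1), and the others were Eef1akmt2 -0.121 to 0.0857, Eef2k -0.0155 to 0.127, Eef2kmt -0.0328 to 0.0583, Eefsec -0.0199 to 0.0881, Eif2b2 -0.106 to 0.000712, Eif2b4 -0.100 to 0.0235, Eif2s1 -0.0242 to 0.0334, Eif2s3x -0.0656 to 0.0227, Eif4ebp1 -0.633 to 0.0525, Eif4g3 -0.0610 to 0.0239 and Eif5a -0.0946 to 0.000585.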
